A study of Mus musculus with 18 samples.

Results

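The genes that fold, modify and degrade proteins in the endoplasmic reticulum (ER) were followed in brown adipocytes as a set of 40 genes of the unfolded protein response (UPR). The set holds the stress sensors and the transcription factors XBP1 and ATF6, the chaperones, the disulfide-forming enzymes, the ER-associated degradation (ERAD) machinery and parts of the translocation channel. Rows were taken by gene symbol from an RNA-seq count table of 20295 genes. All 40 symbols were found, 0 were absent, and all 40 were among the 12156 genes that passed the filter on low counts.

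The cells were BAT-LgT, a single line of brown preadipocytes of wild-type mouse genotype that carries SV40 large T antigen, differentiated in dishes with dexamethasone, 3-isobutyl-1-methylxanthine, T3 and insulin. On day 7 they received no lipase inhibitor or an inhibitor each of ATGL and HSL, the enzymes that release fatty acids from stored triglyceride. Stimulation for 3 h began 1 h later. It was done with ISO (isoproterenol, a β-adrenergic agonist, at 100 nM), with SR-3420, which binds ABHD5 and so activates ATGL without a receptor, or with DMSO as Vehicle. The labels give 10 µM for SR-3420 and the text of the study another dose, so the dose is uncertain. The 3 treatments without inhibitors are called Vehicle, ISO and SR-3420, those with them carry the prefix Lipase Inh. (for example Lipase Inh. + ISO), and each of the 6 groups had 3 samples. The study describes its replicates as independent experiments, and p-values measure the spread between these samples of 1 cell line. In such bulk RNA, fewer cells expressing a gene and less of its RNA per cell cannot be told apart.

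Unfolded proteins in the ER draw the chaperone BiP (Hspa5) away from the sensors IRE1α (Ern1), PERK (Eif2ak3) and ATF6. IRE1α splices Xbp1 mRNA into the form that encodes an active transcription factor, ATF6 is cut free in the Golgi, and both factors drive chaperone and ERAD genes through the promoter elements ERSE, ERSE-II and UPRE, whereas PERK slows translation and favours ATF4 and CHOP. Adipocytes secrete large amounts of adiponectin, which has to be folded and disulfide-bonded in the ER. Counts per gene do not separate spliced from unspliced Xbp1.

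Levels are CPM, the counts-per-million of libraries scaled with TMM factors, as mean ± SD over 3 replicates. Differences are log2 fold changes ± SE from edgeR's quasi-likelihood test, with p-values adjusted over all 12156 genes by Benjamini-Hochberg, and a gene was called at an adjusted p of at most 0.05. Each library was also left out in turn, and where several libraries are named for a lost call, leaving out any of them alone ended it. Total counts lay between 10310447 and 21205032 in 17 libraries. Lipase Inh. + SR-3420 replicate 2 held 4263755 counts, of which the gene Lars2 took 18.3% (95% Wilson interval from 18.3 to 18.4%, counting error only; 0.0397 to 0.121% elsewhere), so calls with that group are also given without it. Scaling by total counts alone moved the median gene by -0.31 (ISO against Vehicle), -0.16 (SR-3420 against Vehicle), -0.23 (Lipase Inh. + ISO against Lipase Inh. + Vehicle), -0.15 (ISO against SR-3420) and -0.13 (the same with inhibitors) on the log2 scale, and changes are stated relative to these shifts. Of 10 brown adipocyte markers all were detected, Adipoq at 2415 to 4026 CPM and Ucp1 at 1.39 to 789 CPM, with Cox7a1 lowest at 0.367 to 2.47 CPM. Of the macrophage markers, Ptprc had 0 counts in every library, Emr1 at most 1 and Csf1r at most 14, while Cd68 was present in every library at 1.96 to 5.88 CPM (up to 70 counts). The summed level of these 4 markers ranged over 1.96 to 3.97 CPM with Vehicle, 3.78 to 6.29 with ISO, 2.93 to 4.70 with SR-3420, 2.64 to 4.23 with Lipase Inh. + Vehicle, 2.52 to 4.10 with Lipase Inh. + ISO and 2.97 to 3.46 with Lipase Inh. + SR-3420. Of the muscle markers Myog and Myh1 had at most 1 count, Myod1 at most 22 and Acta1 at most 23, and the endothelial marker Pecam1 at most 9. The summed level of 5 preadipocyte markers (Pdgfra, Dlk1, Cd34, Ly6a and Thy1, all detected) ranged over 32.7 to 40.7 CPM with Vehicle, 44.9 to 56 with ISO, 45.6 to 46.6 with SR-3420, 31.5 to 37.6 with Lipase Inh. + Vehicle, 38.7 to 51.8 with Lipase Inh. + ISO and 34.0 to 35.2 with Lipase Inh. + SR-3420, and the part of these cell types in the results was not tested.

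In Vehicle cells the levels of the set ranged widely, and Ero1lb and Derl3 stood at the 38.2 and 44.9 percentiles of genes with a count. Per length, Hspa5, the main HSP70 chaperone of the ER, stood highest at 266 ± 8.59 RPKM, followed by the calcium-binding chaperone Calr at 238 ± 9.62 and P4hb, a protein disulfide isomerase, at 166 ± 9.82. Derl1, part of the ERAD channel, had 135 ± 7.35 RPKM and Hsp90b1, the HSP90 chaperone of the ER, 132 ± 0.903, and these neighbours in the order did not differ beyond their spread. Pdia4 (102 ± 3.26 RPKM) and Xbp1 (86.2 ± 4.18 RPKM) came next. At the low end were Uggt1, the glucosyltransferase that returns misfolded glycoproteins to the calnexin cycle, at 5.74 ± 0.273 RPKM, the ERAD factor Derl3 at 3.35 ± 1.06 and the oxidase Ero1lb at 1.42 ± 0.112. Between these ends most neighbours overlapped in their SDs. All 40 genes together summed to 6290 to 6523 CPM in Vehicle.

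**Figure D1:**
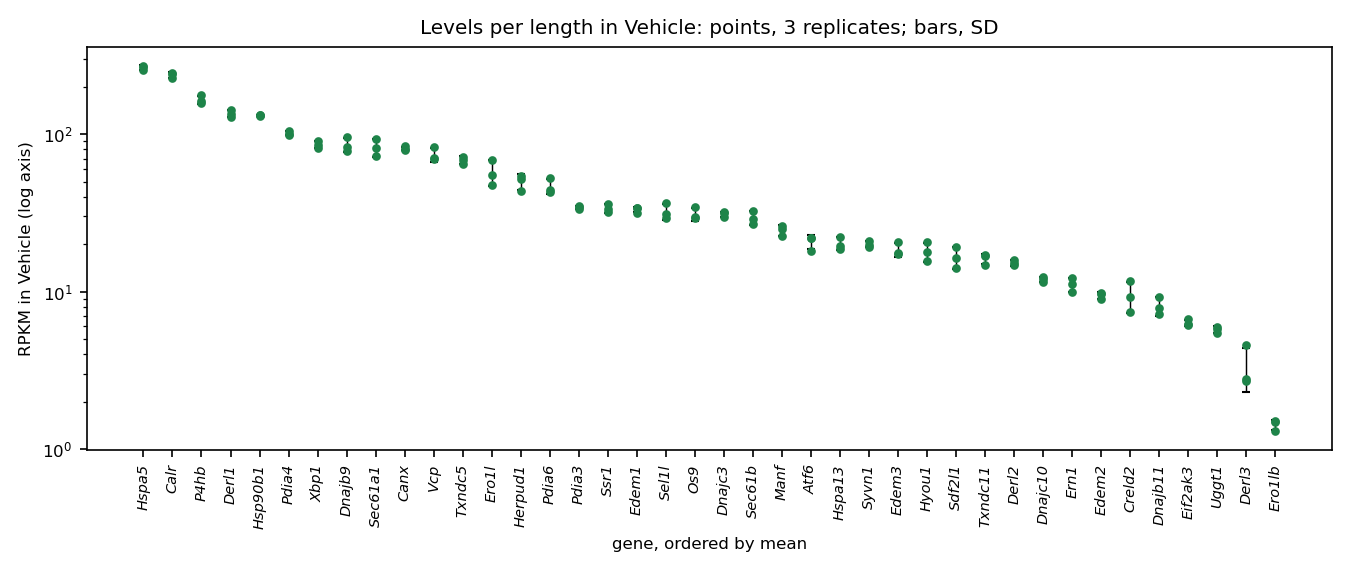
Levels of the 40 genes in Vehicle in RPKM, which is CPM per kilobase of counted length (log axis), ordered by mean. Points are the 3 replicates and bars the SD; the order runs from Hspa5 at 266 ± 8.59 to Ero1lb at 1.42 ± 0.112 RPKM.

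The promoters show which of these genes carry the textbook elements of the ATF6 and XBP1 arms. Windows from 250 bases before to 50 bases after the start of the gene (RefSeq, build GRCm38.p6, which is not the mm9 build of the count table) were given for 34 of the 40 genes (not for Atf6, Hyou1, Hspa13, Manf, Derl1 and Sec61a1), and were searched on both strands. The ERSE, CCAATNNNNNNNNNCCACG, was present in 10 of the 34 genes (29.4%) and in 37 of 27025 genes with a window (0.137%). Because the 40 genes were chosen as genes of the response that acts through these elements, such shares are a description and not a test. The ERSE-II, which is ATTGG and CCACG 1 base apart, was present in 2 (5.88%, against 0.0444% of all genes), and the UPRE, TGACGTGG, in 3 (Txndc5, Txndc11 and Vcp; 8.82%, against 0.714%). The CCACG that ends the ERSE and ERSE-II, counted inside or outside these elements, was present in 82.4% of the 34 genes and in 35.5% of all genes with a window. The cyclic AMP element, TGACGTCA, was in 0 of the 34 genes and in 2.03% of all genes, and the C/EBP-ATF element, TGATGCAA, only in Herpud1 (2.94%, against 1.03%). The stretches below are those of the 10 genes with an ERSE and of Herpud1, which has an ERSE-II, whose levels are set against these elements at the end, with the fixed bases of these elements in capitals, on the strand of the gene and with positions counted from its start. An ERSE on the opposite strand reads CGTGG before ATTGG, and Hsp90b1 has a match on each strand. The other ERSE-II, that of Dnajb11, lies after the start and is not shown.
Hspa5 (chr2:34772010-34772058, + strand, -80 to -32): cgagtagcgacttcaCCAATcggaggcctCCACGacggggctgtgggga
Hsp90b1 (chr10:86705518-86705671, - strand, -227 to -74): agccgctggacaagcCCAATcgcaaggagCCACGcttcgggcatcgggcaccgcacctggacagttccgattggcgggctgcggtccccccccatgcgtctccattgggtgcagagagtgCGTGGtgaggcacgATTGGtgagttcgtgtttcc
Calr (chr8:84847060-84847108, - strand, -177 to -129): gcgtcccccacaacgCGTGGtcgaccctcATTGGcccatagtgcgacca
Canx (chr11:50325785-50325833, - strand, -160 to -112): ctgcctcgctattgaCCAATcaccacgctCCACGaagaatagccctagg
Dnajc3 (chr14:118937812-118937860, + strand, -120 to -72): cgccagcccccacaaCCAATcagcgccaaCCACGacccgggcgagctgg
Ero1lb (chr13:12565667-12565715, + strand, -216 to -168): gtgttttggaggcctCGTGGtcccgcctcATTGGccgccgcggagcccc
Creld2 (chr15:88819505-88819553, + strand, -141 to -93): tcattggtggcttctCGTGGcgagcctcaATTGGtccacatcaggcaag
Syvn1 (chr19:6046517-6046565, + strand, -59 to -11): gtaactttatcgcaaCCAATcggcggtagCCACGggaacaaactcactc
Pdia6 (chr12:17266476-17266524, + strand, -113 to -65): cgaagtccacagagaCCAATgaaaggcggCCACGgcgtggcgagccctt
Derl3 (chr10:75893227-75893275, + strand, -171 to -123): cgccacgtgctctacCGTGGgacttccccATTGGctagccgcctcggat
Herpud1 (chr8:94386362-94386402, + strand, -67 to -27): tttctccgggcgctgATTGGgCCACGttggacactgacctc

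Stimulation with ISO changed 25 of the 40 genes. With ISO, 15 genes rose (37.5%, against 26.8% of all genes tested) and 10 fell (25.0%, against 25.0%), and their median log2 fold change was 0.12, against -0.02 for all genes. The oxidase Ero1l and the BiP co-chaperone Dnajb9 rose more than 2-fold (the background of such calls is 5.03%), and Derl3 fell more than 2-fold (4.07%). SR-3420 raised 14 genes (35.0%, against 26.0%) and lowered 10 (25.0%, against 25.4%), with a median of -0.08 against -0.02. Ero1l and Dnajb9 again rose more than 2-fold (3.97%). Both effects were measured against the same Vehicle samples.

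Without scaling factors these splits shifted downward. On total counts ISO gave 7 higher (17.5%, against 12.3% of all genes) and 17 lower (42.5%, against 49.4%), and the rises of Atf6, Hspa13, Edem1, Sel1l, P4hb, Txndc11, Manf and Ssr1 were no longer called. SR-3420 gave 9 higher (22.5%, against 16.0%) and 17 lower (42.5%, against 35.9%), and those of Hyou1, Hspa13, Hsp90b1, Canx and Edem1 were no longer called. With 1 library left out, the ISO counts ran from 11 to 18 higher and from 8 to 12 lower, and the SR-3420 counts from 12 to 14 and from 8 to 9.

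The lipase inhibitors alone gave 0 calls by edgeR in either direction, where 0.485% of all genes were higher and 0.428% lower. At an unadjusted p under 0.05, 7 genes were higher and 1 lower. DESeq2 called 3 genes higher, Hspa5 (log2 fold change 0.24 ± 0.07 in edgeR), Edem1 (0.23 ± 0.06) and Sel1l (0.22 ± 0.07), and 0 lower.

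In the presence of inhibitors ISO changed 30 of the 40 genes. Relative to Lipase Inh. + Vehicle, 20 genes rose (50%, against 29.4% of all genes) and 10 fell (25.0%, against 28.3%), with a median of 0.18 against -0.01. More than 2-fold changes were the rise of Xbp1 (background 5.43%) and the falls of Herpud1 and Derl3 (7.63%). On total counts 13 genes were higher (32.5%, against 16.2% of all genes) and 15 lower (37.5%, against 42.1%), and the rises of Hyou1, Dnajb11, Canx, P4hb, Edem3, Sec61a1 and Sec61b were not called there. The count of genes that fell dropped to 6 without Lipase Inh. + ISO replicate 2.

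SR-3420 gave few calls in the presence of inhibitors. Of the 40 genes, 1 was higher (Dnajb9; 2.50%, against 2.99%) and 0 were lower by edgeR or DESeq2 (1.36% of all genes by edgeR; 3 members lower at an unadjusted p under 0.05 by either tool). Without Lipase Inh. + SR-3420 replicate 2, Dnajb9 and Ero1l were higher.

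**Figure D2:**
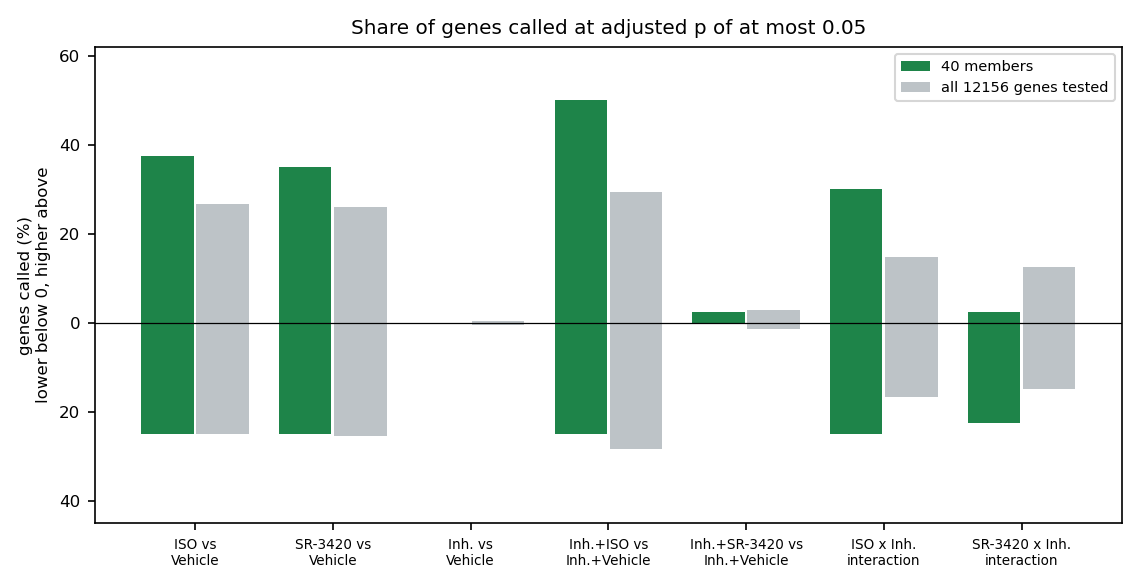
Share of the 40 genes (green) and of all 12156 genes tested (grey) called higher (above 0) or lower (below 0), in percent, for 5 comparisons and 2 interactions on the TMM scale. The green bar for a rise with ISO in the presence of inhibitors reaches 50%, against 29.4% of all genes; on total counts 13 of the 40 genes were higher there (32.5%, against 16.2%).

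**Figure D3:**
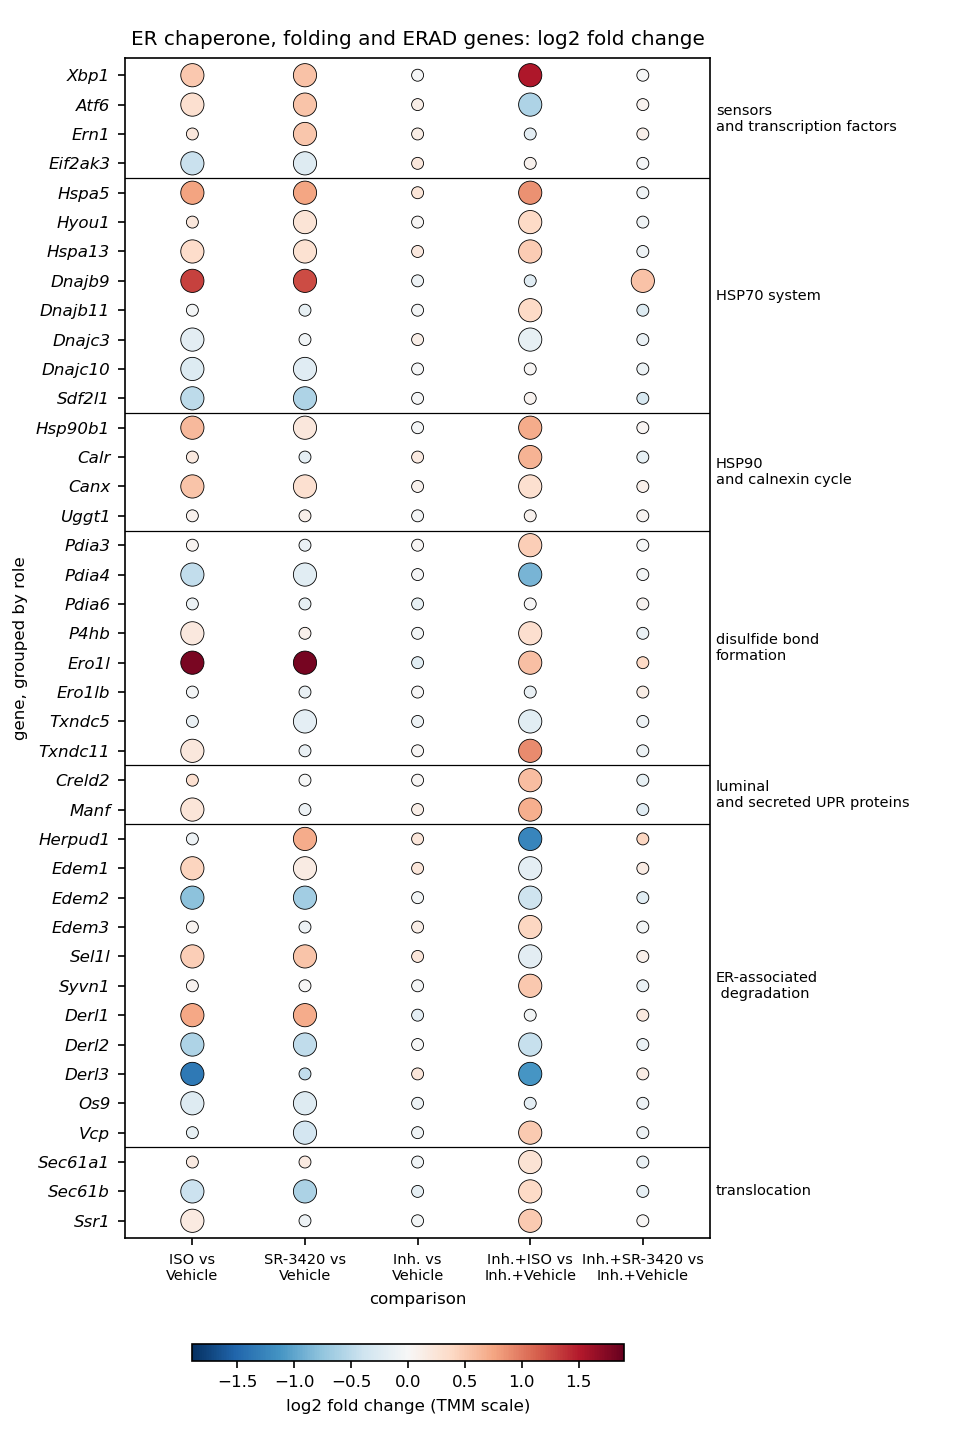
Log2 fold change (colour, TMM scale) of each of the 40 genes in 5 comparisons, grouped by role; large circles mark an adjusted p of at most 0.05. Ero1l with ISO (1.81) and SR-3420 (1.82) and Xbp1 with ISO and inhibitors (1.54) carry the deepest red, and the columns for the inhibitors alone and for SR-3420 with inhibitors are nearly blank.

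The groups by role are small, and their counts stand against shares of all genes of 26.8% higher and 25.0% lower with ISO, 26.0% and 25.4% with SR-3420, and 29.4% and 28.3% with ISO and inhibitors. The 4 sensors and transcription factors moved in both directions, with 2 higher and 1 lower with ISO, 3 and 1 with SR-3420, and 1 and 1 with ISO and inhibitors. Xbp1 (mm9 chr11:5420644-5425996), the factor activated by IRE1α, had 185, 193 and 203 CPM in the 3 Vehicle samples, 268, 280.3 and 279 with ISO and 284, 268 and 297 with SR-3420. With inhibitors, Xbp1 had 188, 187 and 195 CPM with Vehicle, 568, 552 and 535 with ISO and 185, 195 and 189 with SR-3420. The ISO and SR-3420 samples lay above all Vehicle samples, Lipase Inh. + ISO lay far above every other group, and SR-3420 with inhibitors overlapped its Vehicle. The rise with ISO was 0.51 ± 0.06 (adjusted p 1.96e-07) without inhibitors and 1.54 ± 0.06 (adjusted p 4.02e-15) with them, a 2.90-fold increase, and the difference between these effects was 1.02 ± 0.08 (adjusted p 3.55e-09). For SR-3420 the rise of 0.55 ± 0.06 (adjusted p 8.91e-08) went to -0.01 ± 0.06 (adjusted p 0.982) with inhibitors, a difference of -0.56 ± 0.08 (adjusted p 3.7e-05).

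Atf6, the sensor that becomes a transcription factor (mm9 chr1:172634588-172797902), had 136, 163 and 164 CPM with Vehicle, 194, 196 and 184 with ISO and 228, 231 and 216 with SR-3420. With inhibitors, Atf6 had 172, 168 and 162 CPM with Vehicle, 115, 107 and 113 with ISO and 168, 174 and 186 with SR-3420. The direction with ISO thus turned: the ISO samples lay above all Vehicle samples without inhibitors and below them with inhibitors. Atf6 rose by 0.31 ± 0.07 (adjusted p 0.000744) with ISO (0.0041, adjusted p 0.971 on total counts) and by 0.55 ± 0.07 (adjusted p 1.12e-06) with SR-3420, and fell with ISO in the presence of inhibitors, at -0.58 ± 0.07 (adjusted p 3.26e-07). The interactions were -0.89 ± 0.10 (adjusted p 3.95e-07) for ISO and -0.48 ± 0.10 (adjusted p 0.00104) for SR-3420.

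Ern1, which encodes IRE1α, had 39.4, 44.3 and 48.4 CPM with Vehicle, 51.8, 55.2 and 45.9 with ISO and 61.6, 66.7 and 61.9 with SR-3420. With inhibitors, Ern1 had 50.2, 42.3 and 53.2 CPM with Vehicle, 42, 41.1 and 44 with ISO and 57.5, 49 and 50.7 with SR-3420. Only the SR-3420 samples lay apart from the others without overlap. Ern1 rose with SR-3420 by 0.53 ± 0.09 (adjusted p 7.74e-05) and stood at 0.22 ± 0.10 (adjusted p 0.0624) with ISO, and its interaction with the inhibitors was -0.42 ± 0.13 (adjusted p 0.0223) for ISO and -0.41 ± 0.13 (adjusted p 0.0263) for SR-3420. The first of these was lost without Vehicle replicate 1, Lipase Inh. + Vehicle replicates 1 and 3 and ISO replicate 2 (adjusted p 0.0532 to 0.0750), and the second without Vehicle replicate 1, Lipase Inh. + Vehicle replicates 1 and 3, SR-3420 replicate 2 and Lipase Inh. + SR-3420 replicates 2 and 3 (adjusted p 0.0557 to 0.0812). Eif2ak3, which encodes PERK, had 27.5, 29.9 and 28.1 CPM with Vehicle, 21.2, 20.3 and 22.7 with ISO and 25, 23.1 and 23.9 with SR-3420. With inhibitors, Eif2ak3 had 35.7, 32.1 and 31.7 CPM with Vehicle, 33.7, 37.3 and 34.5 with ISO and 32, 33.8 and 32.1 with SR-3420. The ISO and SR-3420 samples lay below all Vehicle samples, and the 3 groups with inhibitors overlapped one another. Eif2ak3 fell with ISO (-0.42 ± 0.08, adjusted p 0.00028) and with SR-3420 (-0.25 ± 0.08, adjusted p 0.0150, lost without Vehicle replicate 2 and SR-3420 replicate 2, adjusted p 0.0535 to 0.0674), and the ISO interaction was 0.50 ± 0.12 (adjusted p 0.00205).

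Of the 8 genes of the HSP70 system, 3 rose and 3 fell with ISO, 4 rose and 2 fell with SR-3420, and 4 rose and 1 fell with ISO in the presence of inhibitors. Hspa5 (mm9 chr2:34627610-34632049) had 691, 649 and 679 CPM with Vehicle, 1134, 1200.3 and 1081 with ISO and 1155, 1223 and 1021 with SR-3420. With inhibitors, Hspa5 had 812, 801 and 768 CPM with Vehicle, 1439, 1487 and 1427 with ISO and 765, 706 and 803 with SR-3420. Its level was thus raised by both agents, and the inhibitors left the ISO level high but not that with SR-3420, whose samples overlapped Lipase Inh. + Vehicle. Hspa5 rose by 0.76 ± 0.07 (adjusted p 7.94e-09) with ISO and by 0.75 ± 0.07 (adjusted p 1.37e-08) with SR-3420. In the presence of inhibitors the effects were 0.87 ± 0.07 (adjusted p 6.17e-10) for ISO and -0.06 ± 0.07 (adjusted p 0.713) for SR-3420. The interaction was called for SR-3420 (-0.82 ± 0.10, adjusted p 2.91e-06) and not for ISO (0.11 ± 0.10, adjusted p 0.415).

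Dnajb9 (mm9 chr12:45306884-45311055), an ER J-domain partner of BiP that also binds IRE1α, had 156, 147 and 178 CPM with Vehicle, 384, 348 and 445 with ISO and 394, 312 and 429.7 with SR-3420. With inhibitors, Dnajb9 had 152, 146 and 149.6 CPM with Vehicle, 122, 118 and 140.4 with ISO and 195, 182 and 278 with SR-3420. All ISO and SR-3420 samples without inhibitors lay above every other sample, and with inhibitors the ISO samples lay below their Vehicle and the SR-3420 samples above it. Dnajb9 rose 2.45-fold with ISO (log2 1.29 ± 0.13, adjusted p 4.01e-08) and 2.37-fold with SR-3420 (log2 1.24 ± 0.13, adjusted p 9.7e-08). With inhibitors the ISO effect was -0.23 ± 0.13 (adjusted p 0.143), an interaction of -1.52 ± 0.19 (adjusted p 1.74e-06). SR-3420 still raised Dnajb9 with inhibitors, by 0.56 ± 0.13 (adjusted p 0.0153), with an interaction of -0.68 ± 0.19 (adjusted p 0.00877). The rise with inhibitors was lost without Lipase Inh. + Vehicle replicates 1 and 2 and Lipase Inh. + SR-3420 replicate 3 (adjusted p 0.0528 to 0.163) and on total counts (0.46, adjusted p 0.0901), and was 0.66 (adjusted p 0.00726) without Lipase Inh. + SR-3420 replicate 2.

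Hspa13, an ER-bound member of the HSP70 family, had 75.8, 79.4 and 90.7 CPM with Vehicle, 102, 103 and 107 with ISO and 98.2, 95.4 and 106 with SR-3420. With inhibitors, Hspa13 had 96.2, 87.9 and 98.1 CPM with Vehicle, 132, 125 and 138 with ISO and 84.7, 75.4 and 100.0 with SR-3420. The 3 samples of Lipase Inh. + ISO were the highest of all 18. Hspa13 rose by 0.35 ± 0.09 (adjusted p 0.00191) with ISO, by 0.29 ± 0.09 (adjusted p 0.00798) with SR-3420 and by 0.48 ± 0.08 (adjusted p 4.8e-05) with ISO and inhibitors. Its SR-3420 interaction of -0.39 ± 0.12 (adjusted p 0.0226) was lost without Vehicle replicate 1, Lipase Inh. + SR-3420 replicates 1 and 2, SR-3420 replicate 3 and Lipase Inh. + Vehicle replicate 3 (adjusted p 0.0536 to 0.0617). Hyou1, the large HSP70-like chaperone that exchanges nucleotide on BiP, had 91.2, 78.7 and 68.9 CPM with Vehicle, 98.5, 101 and 76.3 with ISO and 94.1, 101 and 91.1 with SR-3420. With inhibitors, Hyou1 had 79.8, 83.6 and 79.5 CPM with Vehicle, 109.8, 108 and 99.4 with ISO and 80.1, 81.8 and 69.8 with SR-3420. The groups without inhibitors overlapped, while Lipase Inh. + ISO lay above both other inhibitor groups. Hyou1 rose with ISO and inhibitors by 0.38 ± 0.10 (adjusted p 0.00238), had 0.21 ± 0.10 (adjusted p 0.0866) with ISO alone, and rose by 0.26 ± 0.10 (adjusted p 0.0368) with SR-3420, a call lost without SR-3420 replicates 1 and 2 and Vehicle replicates 2 and 3 (adjusted p 0.0649 to 0.202).

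The other J-domain proteins had smaller log2 fold changes than Dnajb9 had with ISO. Dnajb11, which delivers substrates to BiP, had 23.6, 19.8 and 18.2 CPM with Vehicle, 21.1, 22 and 17.1 with ISO and 19.3, 19.6 and 16.7 with SR-3420. With inhibitors, Dnajb11 had 20.3, 21.6 and 18.4 CPM with Vehicle, 22.6, 28.7 and 26.9 with ISO and 19.6, 17.1 and 13.9 with SR-3420. The groups without inhibitors overlapped, and with inhibitors the ISO samples lay above the others. Dnajb11 rose there by 0.38 ± 0.13 (adjusted p 0.0172), a call lost without Lipase Inh. + ISO replicates 2 and 3 and Lipase Inh. + Vehicle replicate 3 (adjusted p 0.0534 to 0.0796). Dnajc3, a co-chaperone also known as an inhibitor of PERK, had 154, 164 and 165 CPM with Vehicle, 146, 131 and 143 with ISO and 161, 147 and 155 with SR-3420. With inhibitors, Dnajc3 had 173, 179 and 176 CPM with Vehicle, 162, 152 and 160.1 with ISO and 156, 161 and 166 with SR-3420. The ISO samples lay below the Vehicle samples of the same inhibitor state. Dnajc3 fell with ISO, with a log2 fold change of -0.20 ± 0.06 (adjusted p 0.00764) without inhibitors and -0.15 ± 0.06 (adjusted p 0.0342) with them. The first call was lost without ISO replicate 2 (adjusted p 0.0504) and the second without Lipase Inh. + Vehicle replicates 1, 2 and 3 and Lipase Inh. + ISO replicates 2 and 3 (adjusted p 0.0581 to 0.127).

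Sdf2l1, which keeps Dnajb11 and BiP substrates from aggregating, had 21.2, 15.5 and 18.2 CPM with Vehicle, 12.8, 13.5 and 12.8 with ISO and 11.2, 14.1 and 11.4 with SR-3420. With inhibitors, Sdf2l1 had 17.9, 19.4 and 17 CPM with Vehicle, 18.1, 17.5 and 21.1 with ISO and 12.9, 14.4 and 16 with SR-3420. Without inhibitors all 6 samples of ISO and SR-3420 lay below the Vehicle samples, and with inhibitors the ISO samples overlapped their Vehicle. Sdf2l1 fell, with log2 fold changes of -0.50 ± 0.13 (adjusted p 0.00289) for ISO and -0.59 ± 0.13 (adjusted p 0.000582) for SR-3420, and stood at 0.07 ± 0.12 (adjusted p 0.642) with ISO and inhibitors. The ISO interaction of 0.57 ± 0.18 (adjusted p 0.0192) was lost without Vehicle replicate 1 and Lipase Inh. + ISO replicate 3 (adjusted p 0.0654 to 0.0725). Dnajc10, a J-domain protein with thioredoxin domains that reduces ERAD substrates, fell with ISO (-0.26 ± 0.08, adjusted p 0.0117, lost without ISO replicate 1, adjusted p 0.0669) and SR-3420 (-0.23 ± 0.08, adjusted p 0.0234, lost without Vehicle replicates 2 and 3 and SR-3420 replicate 2, adjusted p 0.0536 to 0.154).

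**Figure D4:**
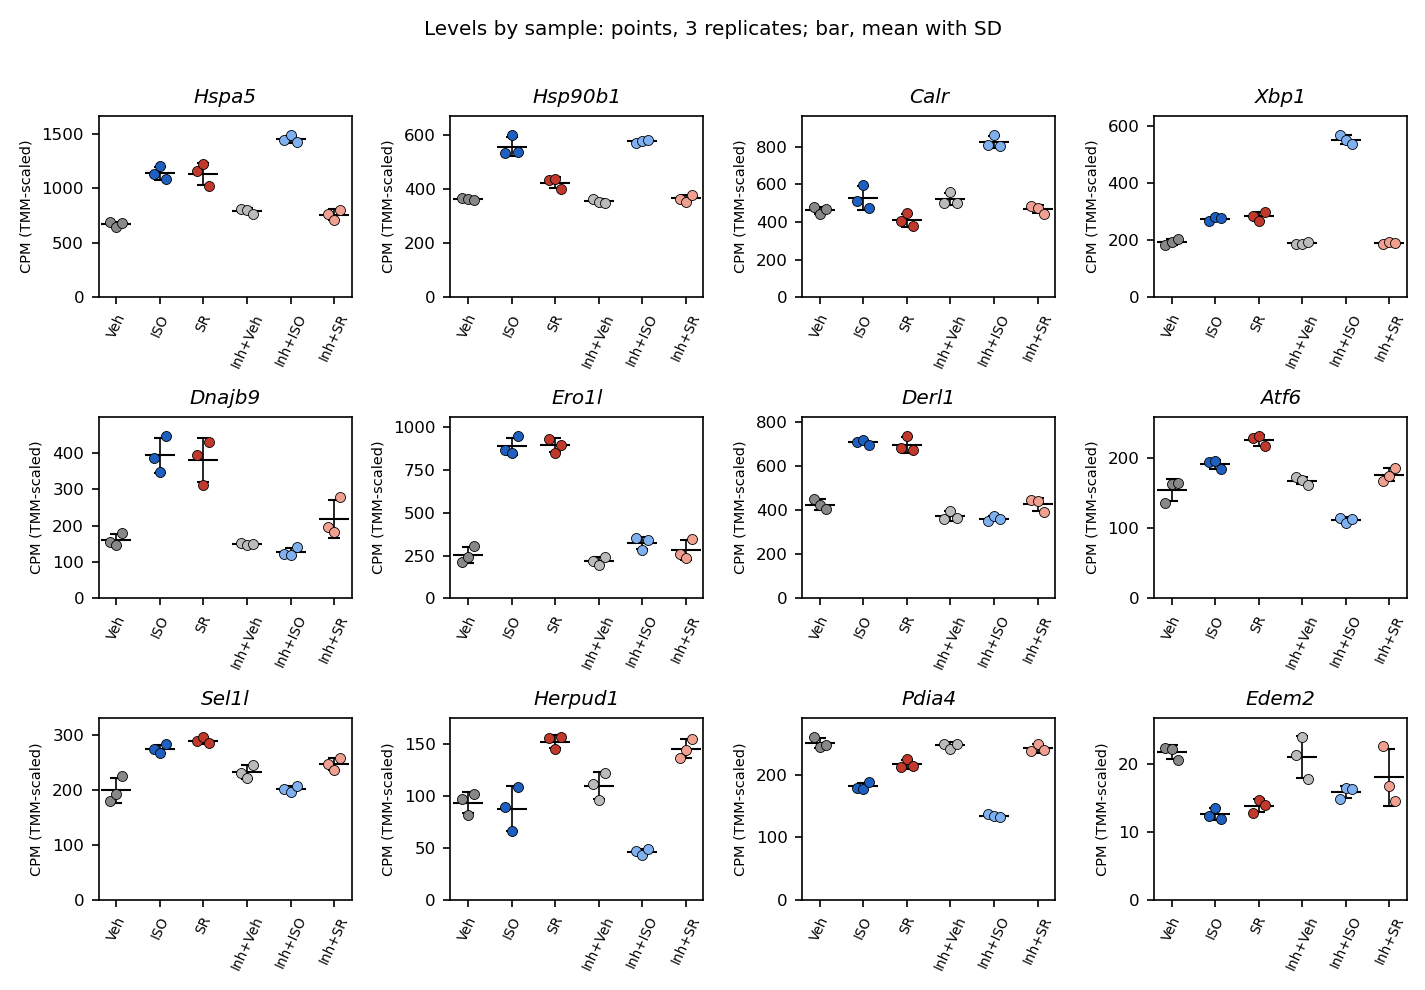
CPM (TMM-scaled, axis from 0) of 12 of the genes in all 18 samples, for Vehicle (Veh), ISO and SR-3420 (SR) without and with lipase inhibitors (Inh). Points are replicates and bars the mean with SD; Xbp1 is highest with Inh+ISO (552 ± 16.3), Ero1l with ISO (889 ± 51.7) and SR (895 ± 41), and Herpud1 is lowest with Inh+ISO (46.1 ± 3.01).

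Among the 4 genes of the HSP90 and calnexin cycle, 2 rose with ISO, 2 with SR-3420 and 3 with ISO in the presence of inhibitors. Hsp90b1 (mm9 chr10:86153586-86168189) had 367, 365 and 362 CPM with Vehicle, 535, 599.6 and 537 with ISO and 432, 439 and 401 with SR-3420. With inhibitors, Hsp90b1 had 365, 353 and 349 CPM with Vehicle, 572, 579 and 582 with ISO and 365, 353 and 378 with SR-3420. The ISO samples lay above the SR-3420 samples, and these above Vehicle. Hsp90b1 rose by 0.61 ± 0.06 (adjusted p 1.37e-08) with ISO, by 0.22 ± 0.06 (adjusted p 0.00366) with SR-3420 and by 0.70 ± 0.06 (adjusted p 1.22e-09) with ISO and inhibitors, and the ISO interaction was 0.09 ± 0.08 (adjusted p 0.461). In the direct comparison it was higher with ISO than with SR-3420 by 0.40 ± 0.06 (adjusted p 2.8e-05).

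Calr (mm9 chr8:87365987-87370830) had 477, 442 and 471 CPM with Vehicle, 511, 596 and 474 with ISO and 405, 447 and 377 with SR-3420. With inhibitors, Calr had 503, 558 and 501 CPM with Vehicle, 810.4, 860.4 and 802 with ISO and 484, 472 and 445 with SR-3420. The 3 samples of Lipase Inh. + ISO lay above all others, and the ISO and SR-3420 samples each overlapped Vehicle. Calr rose by 0.66 ± 0.08 (adjusted p 2.69e-07) with ISO and inhibitors, was not called with ISO (0.19 ± 0.08, adjusted p 0.0534) or SR-3420 (-0.18 ± 0.08, adjusted p 0.0637) alone, and had an ISO interaction of 0.48 ± 0.11 (adjusted p 0.00218). Canx, the membrane-bound lectin chaperone, rose with ISO from 348 ± 9.49 to 507 ± 13.6 CPM (0.54 ± 0.06, adjusted p 7.18e-08), with SR-3420 to 429.6 ± 13.5 CPM (0.30 ± 0.06, adjusted p 0.000161), and with ISO and inhibitors from 368 ± 9.41 to 455 ± 10.1 CPM (0.31 ± 0.06, adjusted p 0.000104). Its ISO interaction of -0.24 ± 0.08 (adjusted p 0.0301) was lost without Vehicle replicates 1 and 3, Lipase Inh. + Vehicle replicate 1, Lipase Inh. + ISO replicates 1 and 3 and ISO replicate 2 (adjusted p 0.0577 to 0.0883) and on total counts (-0.16, adjusted p 0.321). Uggt1 had 0.08 ± 0.08 (adjusted p 0.411) with ISO, which turned to -0.23 (adjusted p 0.0231) on total counts, and 0.08 ± 0.08 (adjusted p 0.392) with ISO and inhibitors.

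Of the 8 enzymes of disulfide bond formation, 3 rose and 1 fell with ISO, 1 rose and 2 fell with SR-3420, and 4 rose and 2 fell with ISO in the presence of inhibitors. Ero1l (mm9 chr14:45902762-45938247), the oxidase that recharges protein disulfide isomerases, had 212, 245 and 305 CPM with Vehicle, 866, 853 and 948 with ISO and 934, 852 and 899.6 with SR-3420. With inhibitors, Ero1l had 220.2, 196 and 239.6 CPM with Vehicle, 352, 285 and 341 with ISO and 261, 235 and 348 with SR-3420. The samples with ISO or SR-3420 alone lay far above all others and overlapped each other, and with inhibitors the ISO samples lay above their Vehicle while the SR-3420 samples overlapped it. Ero1l rose 3.51-fold with ISO (log2 1.81 ± 0.13, adjusted p 1.38e-10) and 3.53-fold with SR-3420 (log2 1.82 ± 0.13, adjusted p 2.13e-10). With inhibitors the effects were 0.58 ± 0.13 (adjusted p 0.000503) for ISO and 0.37 ± 0.13 (adjusted p 0.115) for SR-3420, and the interactions were -1.23 ± 0.18 (adjusted p 1.37e-05) and -1.45 ± 0.18 (adjusted p 3.89e-06). Without Lipase Inh. + SR-3420 replicate 2 the SR-3420 effect with inhibitors was 0.48 (adjusted p 0.0497).

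Ero1lb, the paralogous oxidase, had 6.26, 5.49 and 6.35 CPM with Vehicle, 5.83, 4.45 and 7.46 with ISO and 5.36, 4.86 and 6.13 with SR-3420. With inhibitors, Ero1lb had 7.66, 5.36 and 5.14 CPM with Vehicle, 4.59, 4.67 and 6.74 with ISO and 6.49, 5.06 and 7.51 with SR-3420. Its groups overlapped throughout, with -0.04 ± 0.21 (adjusted p 0.880) for ISO and -0.13 ± 0.20 (adjusted p 0.609) for SR-3420. Pdia4 (mm9 chr6:47746140-47763511), an isomerase of the BiP complex, had 259.9, 245 and 248 CPM with Vehicle, 179.5, 178 and 188 with ISO and 212, 225 and 214 with SR-3420. With inhibitors, Pdia4 had 250.0, 241 and 249.9 CPM with Vehicle, 137, 134 and 132 with ISO and 237, 250.0 and 239 with SR-3420. The ISO samples were the lowest of those without inhibitors, and Lipase Inh. + ISO was lower still. Pdia4 fell in all of these comparisons, with log2 fold changes of -0.47 ± 0.05 (adjusted p 2.75e-07) for ISO, -0.21 ± 0.05 (adjusted p 0.00268) for SR-3420 and -0.88 ± 0.05 (adjusted p 1.09e-11) for ISO with inhibitors, and had an ISO interaction of -0.41 ± 0.08 (adjusted p 0.00027). Pdia6, whose counted region shares 50 bases with Atp6v1c2 on the opposite strand, had 109.7, 92.2 and 89.6 CPM with Vehicle, 81.7, 100.4 and 87.5 with ISO and 84.5, 95.6 and 83.3 with SR-3420. With inhibitors, Pdia6 had 86.3, 90.6 and 85.5 CPM with Vehicle, 82.5, 88.4 and 91.2 with ISO and 92.9, 95.1 and 85.4 with SR-3420, and all groups overlapped. Its effects were -0.12 ± 0.09 (adjusted p 0.274) for ISO and 0.00 ± 0.09 (adjusted p 0.997) for ISO with inhibitors (-0.23, adjusted p 0.0461 on total counts).

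Txndc11 (mm9 chr16:11075004-11134625), a thioredoxin-domain protein that works with EDEM proteins and shares 75 counted bases with Snn, had 42.6, 48.8 and 49.3 CPM with Vehicle, 54.1, 53.3 and 55.5 with ISO and 43.7, 42.9 and 40.8 with SR-3420. With inhibitors, Txndc11 had 48.6, 50.8 and 44 CPM with Vehicle, 86.8, 95.2 and 84.2 with ISO and 45.6, 47.7 and 41.2 with SR-3420. The Lipase Inh. + ISO samples lay far above all others. Txndc11 rose by 0.89 ± 0.08 (adjusted p 2.72e-09) with ISO and inhibitors, with an interaction of 0.68 ± 0.11 (adjusted p 6.81e-05). With ISO alone it was higher by 0.21 ± 0.08 (adjusted p 0.0311), a call that was lost without Vehicle replicate 1 and ISO replicates 1, 2 and 3 (adjusted p 0.0502 to 0.161) and turned in sign on total counts, to -0.094 (adjusted p 0.381). Of the other isomerases, Pdia3, which folds glycoproteins with Calr and Canx, rose with ISO and inhibitors from 92.1 ± 1.29 to 128 ± 2.10 CPM (0.47 ± 0.07, adjusted p 7.18e-06; interaction 0.42 ± 0.10, adjusted p 0.00287), and had 0.05 ± 0.07 (adjusted p 0.580) with ISO alone, which turned to -0.25 (adjusted p 0.0221) on total counts. P4hb rose with ISO and inhibitors (0.33 ± 0.07, adjusted p 0.000255), and with ISO alone by 0.20 ± 0.07 (adjusted p 0.0181), which turned to -0.11 (adjusted p 0.276) on total counts and was lost without ISO replicates 1 and 2 and Vehicle replicates 2 and 3 (adjusted p 0.0516 to 0.0821). Txndc5, a further isomerase, fell with SR-3420 (-0.18 ± 0.07, adjusted p 0.0267, lost without Vehicle replicates 1 and 3 and SR-3420 replicates 1, 2 and 3, adjusted p 0.0521 to 0.101) and with ISO and inhibitors (-0.21 ± 0.07, adjusted p 0.0105, lost without Lipase Inh. + ISO replicate 2, adjusted p 0.0705).

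The luminal and secreted proteins Creld2 and Manf both rose with ISO in the presence of inhibitors. Creld2, a small ER stress-induced protein with isomerase activity, had 15.9, 12.7 and 10.1 CPM with Vehicle, 14.8, 18.9 and 14.3 with ISO and 12.3, 14.1 and 12.5 with SR-3420. With inhibitors, Creld2 had 12.3, 13 and 14.3 CPM with Vehicle, 20.2, 19.8 and 19.8 with ISO and 14.6, 11.7 and 9.61 with SR-3420. Without inhibitors both treated groups overlapped Vehicle, and with inhibitors the ISO samples lay above both other groups. Creld2 rose by 0.59 ± 0.15 (adjusted p 0.00209) there and stood at 0.30 ± 0.16 (adjusted p 0.111) with ISO alone. Manf, a stress-secreted partner of BiP, had 57.7, 49.7 and 55 CPM with Vehicle, 59.95, 74.6 and 58.3 with ISO and 54.4, 54.4 and 44.3 with SR-3420. With inhibitors, Manf had 60.2, 62.5 and 54.3 CPM with Vehicle, 95, 98.9 and 92.4 with ISO and 51.1, 47.7 and 50.8 with SR-3420. Only the Lipase Inh. + ISO samples stood clear of all other groups. Manf rose by 0.69 ± 0.09 (adjusted p 1.7e-06) with ISO and inhibitors (interaction 0.45 ± 0.13, adjusted p 0.0142). With ISO alone it was higher by 0.25 ± 0.10 (adjusted p 0.0355), which turned to -0.059 (adjusted p 0.651) on total counts and was lost without Vehicle replicates 2 and 3 and ISO replicate 2 (adjusted p 0.0607 to 0.296).

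The 11 ERAD genes moved in both directions, with 3 higher and 4 lower with ISO, where 26.8% and 25.0% of all genes were called. There were 4 higher and 4 lower with SR-3420, and 3 higher and 6 lower with ISO and inhibitors (29.4% and 28.3% of all genes). Herpud1 (mm9 chr8:96910400-96919258), a membrane protein that organises the HRD1 ubiquitin ligase complex, had 97.1, 81.9 and 102 CPM with Vehicle, 89.2, 65.9 and 109 with ISO and 156, 145 and 157 with SR-3420. With inhibitors, Herpud1 had 111, 96.6 and 123 CPM with Vehicle, 46.5, 42.9 and 48.9 with ISO and 137, 144 and 155 with SR-3420. The SR-3420 samples were high with and without inhibitors, the ISO samples overlapped Vehicle without inhibitors, and Lipase Inh. + ISO was below every other sample. Herpud1 rose by 0.71 ± 0.12 (adjusted p 5.79e-05) with SR-3420, stood at -0.09 ± 0.12 (adjusted p 0.553) with ISO and fell with ISO and inhibitors, at -1.25 ± 0.13 (adjusted p 2.83e-08). The ISO interaction was -1.16 ± 0.18 (adjusted p 3.04e-05), and the SR-3420 interaction -0.30 ± 0.17 (adjusted p 0.207) was not called. With inhibitors the SR-3420 effect was 0.40 ± 0.12 (adjusted p 0.0709).

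Sel1l, the adaptor of HRD1, had 180.2, 193 and 224 CPM with Vehicle, 273, 267 and 283 with ISO and 288, 295 and 284 with SR-3420. With inhibitors, Sel1l had 231, 221 and 245 CPM with Vehicle, 201, 197 and 207 with ISO and 247, 236 and 259 with SR-3420. As with Atf6, ISO samples lay above Vehicle without inhibitors and below it with them. Sel1l rose by 0.46 ± 0.07 (adjusted p 8.76e-06) with ISO (0.16, adjusted p 0.138 on total counts) and by 0.54 ± 0.07 (adjusted p 1.45e-06) with SR-3420, and fell with ISO and inhibitors, at -0.21 ± 0.07 (adjusted p 0.0152). The fall was lost without Lipase Inh. + ISO replicate 2 and Lipase Inh. + Vehicle replicate 3 (adjusted p 0.0509 to 0.0765), while the interactions were -0.67 ± 0.10 (adjusted p 1.79e-05) for ISO and -0.45 ± 0.10 (adjusted p 0.00174) for SR-3420. Edem1, a lectin-like protein that extracts misfolded glycoproteins from the calnexin cycle, had 186, 199.8 and 199.6 CPM with Vehicle, 265, 245 and 273 with ISO and 218, 219 and 218 with SR-3420. With inhibitors, Edem1 had 221, 231 and 233 CPM with Vehicle, 204, 186 and 209 with ISO and 256, 259.6 and 247 with SR-3420. Here too the order of ISO and Vehicle turned with inhibitors, without overlap. Edem1 rose by 0.42 ± 0.06 (adjusted p 5.31e-06) with ISO (0.11, adjusted p 0.229 on total counts) and fell with ISO and inhibitors, at -0.19 ± 0.06 (adjusted p 0.00989). The fall was lost without Lipase Inh. + ISO replicate 2 (adjusted p 0.0706), and the interaction was -0.61 ± 0.09 (adjusted p 9.85e-06). With SR-3420 it was higher by 0.16 ± 0.06 (adjusted p 0.0297), which was lost without Vehicle replicate 1 and SR-3420 replicates 1, 2 and 3 (adjusted p 0.0574 to 0.102).

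Syvn1, which encodes the HRD1 ligase itself and shares 89 counted bases with Mrpl49, had 70.9, 65.2 and 66.9 CPM with Vehicle, 72.8, 76.6 and 62.9 with ISO and 62.8, 72.5 and 69.6 with SR-3420. With inhibitors, Syvn1 had 63.7, 71.9 and 62.6 CPM with Vehicle, 96.2, 100.1 and 87.7 with ISO and 66.1, 54.1 and 59.2 with SR-3420. Only the Lipase Inh. + ISO samples lay apart. Syvn1 rose there by 0.52 ± 0.09 (adjusted p 2.68e-05), with an interaction of 0.45 ± 0.12 (adjusted p 0.00753), so that the ligase and its adaptor Sel1l moved in opposite directions. Derl3 (mm9 chr10:75356143-75358686), a Derlin known for strong induction by XBP1, was near the lower end of detection at 3.60, 6.11 and 3.71 CPM with Vehicle, 2.29, 1.26 and 1.58 with ISO and 3.01, 3.82 and 2.88 with SR-3420. With inhibitors, Derl3 had 4.52, 5.36 and 5.72 CPM with Vehicle, 2.79, 3.02 and 1.67 with ISO and 5.95, 6.93 and 4.96 with SR-3420. All ISO samples lay below the Vehicle samples of the same inhibitor state. Derl3 fell, with log2 fold changes of -1.35 ± 0.28 (adjusted p 0.000366) for ISO and -1.12 ± 0.26 (adjusted p 0.00081) for ISO with inhibitors.

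Derl1 rose with both agents, from 425 ± 23.1 CPM to 707 ± 9.79 with ISO (0.73 ± 0.07, adjusted p 5.15e-09) and 695 ± 34.4 with SR-3420 (0.71 ± 0.07, adjusted p 1.29e-08). With inhibitors Derl1 had 373 ± 21 CPM with Vehicle, 361 ± 11.3 with ISO and 426 ± 30.9 with SR-3420, and its interactions were -0.78 ± 0.09 (adjusted p 1.11e-06) and -0.52 ± 0.09 (adjusted p 0.000251). Derl2, which shares 231 counted bases with Mis12, fell with ISO from 56.9 ± 2.44 to 37.9 ± 3.88 CPM (-0.59 ± 0.08, adjusted p 3.27e-06), with SR-3420 to 40.6 ± 1.38 CPM (-0.48 ± 0.08, adjusted p 3.95e-05), and with ISO and inhibitors from 56.4 ± 2.99 to 41.3 ± 3.17 CPM (-0.44 ± 0.08, adjusted p 7.71e-05). The 3 Derlins thus showed 2 directions with ISO. The SR-3420 interaction of Derl2, 0.36 ± 0.12 (adjusted p 0.0255), was lost without Lipase Inh. + Vehicle replicates 1 and 3, SR-3420 replicate 2, Lipase Inh. + SR-3420 replicate 2 and Vehicle replicate 3 (adjusted p 0.0508 to 0.0595).

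Edem2, which trims mannose ahead of degradation, fell from 21.7 ± 0.998 CPM to 12.6 ± 0.847 with ISO (-0.79 ± 0.14, adjusted p 6.22e-05) and 13.8 ± 0.976 with SR-3420 (-0.65 ± 0.13, adjusted p 0.000356), and with inhibitors from 21 ± 3.09 to 15.9 ± 0.871 with ISO (-0.40 ± 0.13, adjusted p 0.0151, lost without Lipase Inh. + ISO replicate 1 and Lipase Inh. + Vehicle replicate 2, adjusted p 0.0594 to 0.0918). Edem3, its relative, rose only with ISO and inhibitors among the comparisons with a Vehicle group, from 133 ± 15.4 to 177 ± 6.19 CPM (0.41 ± 0.10, adjusted p 0.000877). The interaction of 0.36 ± 0.14 (adjusted p 0.0481) was lost without ISO replicates 1 and 2, Lipase Inh. + Vehicle replicates 1 and 2, Lipase Inh. + ISO replicates 1, 2 and 3 and Vehicle replicate 3 (adjusted p 0.0602 to 0.120). Vcp, the ATPase that pulls proteins out of the membrane, fell with SR-3420 from 247 ± 25 to 194 ± 10.4 CPM (-0.35 ± 0.07, adjusted p 0.000325) and rose with ISO and inhibitors from 233 ± 8.79 to 328 ± 15.3 CPM (0.49 ± 0.07, adjusted p 3.99e-06; interaction 0.65 ± 0.10, adjusted p 3.08e-05). Os9, an ERAD lectin, fell with ISO (-0.25 ± 0.08, adjusted p 0.0140, lost without Vehicle replicate 1 and ISO replicate 3, adjusted p 0.0620 to 0.108) and with SR-3420 (-0.25 ± 0.08, adjusted p 0.0127, lost without Vehicle replicate 1 and SR-3420 replicate 1, adjusted p 0.0702 to 0.105).

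The 3 translocation genes all rose with ISO in the presence of inhibitors. Ssr1, a subunit of the translocon-associated complex, rose there from 303 ± 7.57 to 429 ± 2.36 CPM (0.50 ± 0.06, adjusted p 1.56e-07; interaction 0.34 ± 0.08, adjusted p 0.00285). With ISO alone it was higher by 0.16 ± 0.06 (adjusted p 0.0204), which turned to -0.14 (adjusted p 0.139) on total counts and was lost without Vehicle replicates 1 and 2 and ISO replicate 2 (adjusted p 0.0562 to 0.0820). Sec61a1, the channel itself, rose from 239 ± 16.9 to 289 ± 6.09 CPM (0.28 ± 0.10, adjusted p 0.0174, lost without Lipase Inh. + Vehicle replicates 1 and 3, adjusted p 0.0625 to 0.0679). Sec61b, the small β subunit, fell with ISO alone from 16.3 ± 1.65 to 12.3 ± 0.985 CPM (-0.41 ± 0.13, adjusted p 0.0122, lost without Vehicle replicate 1 and ISO replicate 1, adjusted p 0.0673 to 0.0749) and with SR-3420 to 10.8 ± 0.543 CPM (-0.61 ± 0.13, adjusted p 0.000505). With inhibitors Sec61b rose from 14.6 ± 1.40 to 19.1 ± 2.91 CPM (0.38 ± 0.13, adjusted p 0.0127, lost without Lipase Inh. + ISO replicate 2 and Lipase Inh. + Vehicle replicate 3, adjusted p 0.0594 to 0.105), and the interaction was 0.79 ± 0.18 (adjusted p 0.00188).

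Set side by side, the ISO effects without and with inhibitors, which rest on different samples, fell into several patterns. How many of all genes fall into each pattern was not counted, so the counts below describe only these 40 genes. In the presence of inhibitors ISO raised 29.4% and lowered 28.3% of all genes. Of the 15 genes that rose with ISO, 10 also rose with inhibitors (Xbp1, Hspa5, Hspa13, Hsp90b1, Canx, P4hb, Ero1l, Txndc11, Manf and Ssr1), 2 were not called (Dnajb9 and Derl1) and 3 fell (Atf6, Edem1 and Sel1l). Of the 10 that fell with ISO, 5 also fell with inhibitors (Dnajc3, Pdia4, Edem2, Derl2 and Derl3), 4 were not called and Sec61b rose. A further 9 genes rose only with inhibitors (Hyou1, Dnajb11, Calr, Pdia3, Creld2, Edem3, Syvn1, Vcp and Sec61a1). Being called in 1 comparison and not in another does not show a difference, and of these 9 the interaction was called for Calr, Pdia3, Edem3, Syvn1 and Vcp. The interaction is the difference between the same ISO effects by which these 9 were picked. Its calls among them are partly built in, and no conclusion is drawn from their number. In all, the ISO interaction was positive for 12 genes (30.0%, against 14.9% of all genes) and negative for 10 (25.0%, against 16.6%). For SR-3420, Derl2 alone had a positive interaction (2.50%, against 12.5%), and 9 genes had a negative one (22.5%, against 14.8%). These 9 were all among the 14 that rose with SR-3420. That rise is subtracted in the interaction and rests on the same SR-3420 and Vehicle samples. The overlap is thus partly built in, and no conclusion is drawn from it. Without Lipase Inh. + SR-3420 replicate 2, positive interactions with SR-3420 numbered 0 and negative ones 7 (Xbp1, Atf6, Hspa5, Dnajb9, Ero1l, Sel1l and Derl1). Of the 12244 genes tested in that fit, 1390 were positive and 1691 negative. The summed level of the 40 genes was 6436 ± 127 CPM with Vehicle, 8712 ± 130.0 with ISO and 8327 ± 202 with SR-3420. In the presence of inhibitors it was 6582 ± 38.7 with Vehicle, 8556 ± 37.0 with ISO and 6646 ± 158 with SR-3420. These sums are on the TMM scale and weigh abundant genes most. Without Hspa5 the sum was 5763 ± 107 CPM with Vehicle, 7574 ± 86.3 with ISO and 7195 ± 99.1 with SR-3420. Ero1l went from 254 ± 47.1 CPM with Vehicle to 889 ± 51.7 with ISO and 895 ± 41 with SR-3420. The median log2 fold change of the 40 genes was 0.12 with ISO and -0.08 with SR-3420, and 10 genes fell with each.

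**Figure D5:**
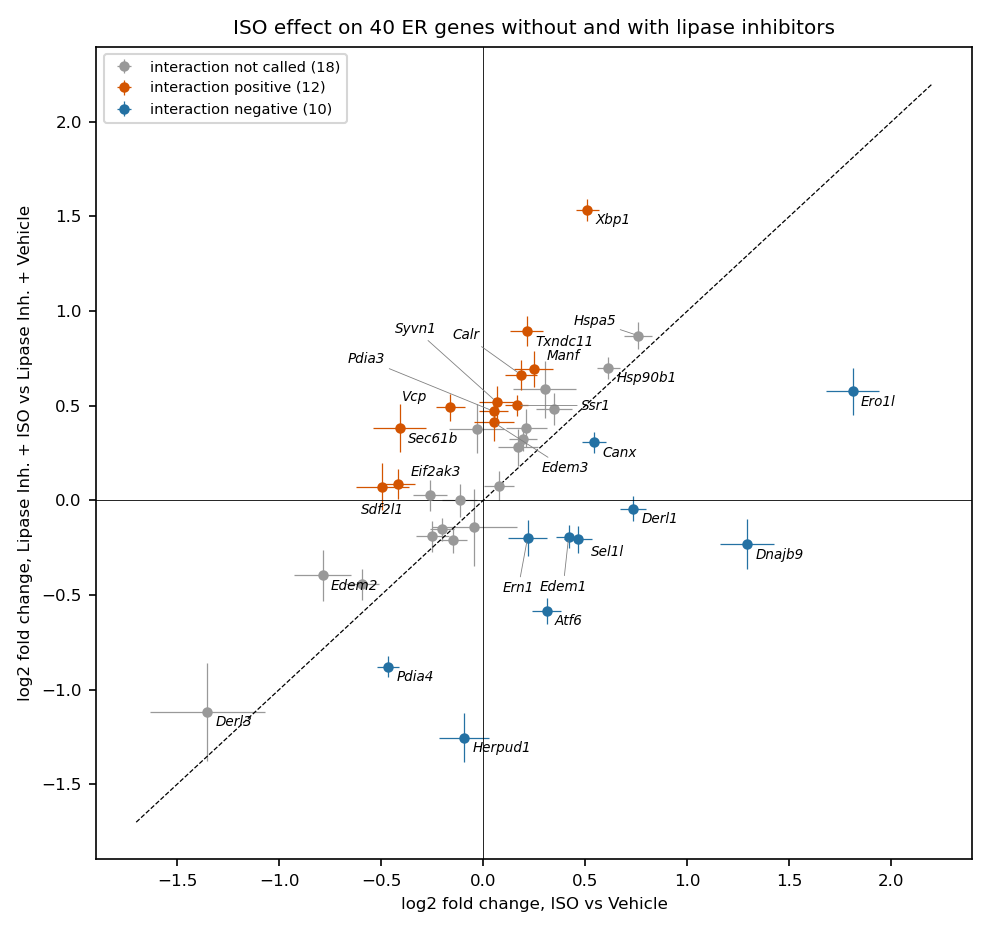
Log2 fold change with ISO without (x) and with (y) lipase inhibitors for the 40 genes on the TMM scale, with SE bars and a dashed line of equal effects; colours give the sign of called interactions. Xbp1 (0.51 and 1.54) lies above the line, while Ero1l, Dnajb9, Derl1, Sel1l, Edem1 and Atf6 lie below it; on total counts 13 genes with positive ISO effects on the TMM scale, among them P4hb, Txndc11, Manf and Ssr1, lie left of 0.

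ISO and SR-3420 were also compared directly. Without inhibitors 7 genes were higher with ISO (17.5%, against 15.8% of all genes) and 5 higher with SR-3420 (12.5%, against 13.9%), shares near the background. Those higher with ISO were Hsp90b1 (0.40 ± 0.06), Calr (0.36 ± 0.08), Txndc11 (0.35 ± 0.08), Manf (0.34 ± 0.10), Edem1 (0.26 ± 0.06), Ssr1 (0.26 ± 0.06) and Canx (0.24 ± 0.06), of which only Hsp90b1 was called on total counts, where 1 gene was higher with ISO (2.50%, against 6.38% of all genes) and 8 with SR-3420 (20.0%, against 25.0%). Those higher with SR-3420 were Herpud1 (-0.80 ± 0.12, adjusted p 4.61e-05), Derl3 (-0.88 ± 0.29), Ern1 (-0.31 ± 0.09), Pdia4 (-0.26 ± 0.05) and Atf6 (-0.24 ± 0.07). The calls of Manf, Derl3 and Ern1 depended on single libraries: Manf was lost without ISO replicate 2 and SR-3420 replicate 3 (adjusted p 0.0985 to 0.113), Derl3 without ISO replicates 2 and 3 and SR-3420 replicate 2 (adjusted p 0.0656 to 0.125) and Ern1 without SR-3420 replicate 2 and ISO replicate 3 (adjusted p 0.0558 to 0.0744). For Ero1l, Dnajb9 and Hspa5 the differences were -0.01 ± 0.12, 0.05 ± 0.13 and 0.01 ± 0.07. With inhibitors, 20 genes were higher with ISO (50%, against 28.6%) and 10 higher with SR-3420 (25.0%, against 28.3%), with the same counts without Lipase Inh. + SR-3420 replicate 2. Xbp1 (1.54 ± 0.06, adjusted p 4.38e-15), Txndc11 (1.00 ± 0.08, adjusted p 9.95e-10), Hspa5 (0.94 ± 0.07, adjusted p 2.33e-10) and Manf (0.93 ± 0.10, adjusted p 5.23e-08) differed most toward ISO, and Herpud1 (-1.66 ± 0.13, adjusted p 4.79e-10), Derl3 (-1.25 ± 0.27, adjusted p 0.000418) and Pdia4 (-0.85 ± 0.06, adjusted p 2.58e-11) most toward SR-3420.

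The promoter elements shown above were set against these changes as a description. Of the 10 genes with an ERSE, 6 rose and 2 fell with ISO and inhibitors (median log2 fold change 0.41), and of the 24 genes with a window and no ERSE, 10 rose and 7 fell (median 0.07). The 6 that rose were Hspa5, Hsp90b1, Calr, Canx, Creld2 and Syvn1, while Pdia6, Ero1lb, Dnajc3 and Derl3 carry the same element and did not rise. The 24 include the genes with an ERSE-II, of which Herpud1 fell and Dnajb11 rose with ISO and inhibitors. With SR-3420, 3 of the 10 rose and 0 fell, against 7 and 10 of the 24. Of all genes 29.4% rose and 28.3% fell in the first of these comparisons, and 26.0% and 25.4% in the second. Under ISO alone, 3 of the 10 rose while 2 fell (median 0.13), against 8 and 8 of the 24 (median 0.01). Among the ISO interactions, 2 of the 10 were called positive and 1 negative (median 0.11), against 9 and 7 of the 24 (median 0.22). The median interaction was thus not higher in the genes with an ERSE.

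Other genes of the same pathways were taken from lists of 86 tested genes. With ISO, 28 rose and 15 fell, where 26.8% of all genes rose and 25.0% fell (median log2 fold change 0.07, against -0.02 for all genes). With ISO and inhibitors 41 rose and 14 fell, where 29.4% of all genes rose and 28.3% fell (median 0.21, against -0.01). SR-3420 raised 21 and lowered 17 of the 86, where 26.0% of all genes rose and 25.4% fell (median -0.01, against -0.02). The lists that follow are small and stand against these same shares. The COPII coat and cargo genes, which carry folded proteins out of the ER, had 10 of 15 higher and 0 lower with ISO and 11 of 15 higher and 0 lower with ISO and inhibitors. Sec24b (1.29 ± 0.06, adjusted p 2.16e-13) and Sec24a (1.08 ± 0.11, adjusted p 2.05e-08) rose most with ISO. Of 21 translocon, signal peptidase and oligosaccharyltransferase genes, 6 rose and 2 fell with ISO, and 12 rose and 1 fell with inhibitors. Of 19 further ERAD genes, 8 rose and 4 fell with ISO, and 12 rose and 3 fell with inhibitors, among them Ube2j1, a ubiquitin-conjugating enzyme of the ER (0.67 ± 0.08, adjusted p 4.24e-07, and 0.86 ± 0.08, adjusted p 7.86e-09). In 20 further ER folding genes, 3 rose and 7 fell with ISO, and 3 rose and 5 fell with inhibitors, where Erp44, which retains Ero1l in the ER, rose by 0.70 ± 0.10 (adjusted p 2.26e-06). Of 11 UPR regulators, 1 rose and 2 fell with ISO, and 3 rose and 5 fell with inhibitors. SR-3420 raised 5 and lowered 1 of the COPII genes, and raised 3 and lowered 6 of the translocon list. It raised 8 and lowered 3 of the further ERAD genes, 2 and 6 of the folding genes, and 3 and 1 of the UPR regulators.

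The ATF4 and CHOP arm, which PERK favours, was listed beside the folding genes. Of its 8 genes, 7 rose with ISO (median 1.08) and 8 with SR-3420 (1.80), and 1 rose and 4 fell with ISO and inhibitors (-0.21). The shares of all genes higher in the first 2 comparisons were 26.8% and 26.0%. For ISO with inhibitors 29.4% of all genes rose and 28.3% fell. The heat shock genes below stand against these same shares. With SR-3420 and inhibitors, where 2.99% of all genes were higher, 6 of the 8 rose (Atf4, Ddit3, Trib3, Chac1, Ppp1r15a and Atf3; median 0.50) and 0 fell, with Chac1 at 2.14-fold (adjusted p 5.89e-06). Without Lipase Inh. + SR-3420 replicate 2 the call of Trib3 was lost (adjusted p 0.0881), and 5 of the 8 rose, against 2.10% of all genes. All 8 had a negative ISO interaction (median -1.93), where the 40 folding and degradation genes had 10 negative and 12 positive. Of all genes 16.6% were negative and 14.9% positive. The ISO rise of 7 of the 8 is subtracted in the interaction and rests on the same ISO and Vehicle samples. Their negative sign is thus partly built in, and no conclusion is drawn from this contrast. Trib3, a target of CHOP, fell with ISO and inhibitors (log2 fold change -2.36 ± 0.10, adjusted p 1.34e-14), in the samples in which Xbp1 rose. Of 10 cytosolic heat shock genes, among them the near-identical copies Hspa1a and Hspa1b whose reads the counting could split, 10 rose with ISO (1.67), 9 with SR-3420 (1.50) and 6 with ISO and inhibitors, where 2 fell. With SR-3420 and inhibitors their log2 fold changes ran from -0.44 to 0.083, with a median of -0.094, and only Hspa1b had an unadjusted p under 0.05 while none passed the adjusted threshold in edgeR.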

How the data were processed

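TruSeq libraries made from total RNA of 18 samples in 6 groups of 3 were sequenced. According to the submitters' processing notes STAR 2.4.2a and HOMER were used, with the mouse build mm9. The deposited values are whole-number counts of reads per gene, which the authors made and did not normalize. The study describes counting 1 read per position and read length, yet the highest count per counted base was 11.1 for Hspa5 and 8.15 for Calr, so how duplicate reads were treated is not settled here, and 0 columns of other samples were left out. Whether counting used strand is not given in the sources used here. The table was fitted whole with edgeR 4.0.16 (R 4.3.3): TMM factors, a filter on low counts (filterByExpr, at least 10 counts, total 15), and quasi-likelihood tests in 1 model with a mean per group, adjusted by Benjamini-Hochberg. SEs were the log2 fold change over the square root of the F statistic. RPKM used the length column of the table. DESeq2 1.42.0, other scaling, other filters, a replicate block, fits on the groups compared and leaving out each library were alternatives, and the code was tested on simulated data. The 40 members, the marker and pathway lists and the genes given in every sample (25 UPR genes chosen by name) were chosen with earlier results of these data known, and the 5 largest called changes in each direction per comparison were named. Total counts limit precision, in particular for Derl3 and Ero1lb and for the library with 4263755 counts.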

Additional observations from a re-analysis of the deposited data

Results flagged for a closer look

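For 22 of the 40 genes the effect of ISO with lipase inhibitors differed from that without them by the interaction test of edgeR (adjusted p at most 0.05). The difference, as the log2 effect with minus that without inhibitors, was positive for Xbp1 (1.02), Sec61b (0.79), Txndc11 (0.68), Vcp (0.65), Sdf2l1 (0.57), Eif2ak3 (0.50), Calr (0.48), Manf (0.45), Syvn1 (0.45), Pdia3 (0.42), Edem3 (0.36) and Ssr1 (0.34). It was negative for Dnajb9 (-1.52), Ero1l (-1.23), Herpud1 (-1.16), Atf6 (-0.89), Derl1 (-0.78), Sel1l (-0.67), Edem1 (-0.61), Ern1 (-0.42), Pdia4 (-0.41) and Canx (-0.24). The calls of Ern1, Sdf2l1, Canx and Edem3 were each lost in at least 1 fit that left out a library. On total counts 13 differences were positive and 8 negative, and that of Canx was not called.

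For 10 genes the effect of SR-3420 differed in the same way. The difference was negative for Ero1l (-1.45), Hspa5 (-0.82), Dnajb9 (-0.68), Xbp1 (-0.56), Derl1 (-0.52), Atf6 (-0.48), Sel1l (-0.45), Ern1 (-0.41) and Hspa13 (-0.39), and positive for Derl2 (0.36). The Lipase Inh. + SR-3420 group includes the library with 4263755 counts, and without it the differences for Ern1, Hspa13 and Derl2 were not called.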

How the results depend on the processing

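Scaling mattered most. On total counts the calls were 7 higher and 17 lower for ISO, 9 and 17 for SR-3420, 13 and 15 for ISO with inhibitors, 0 and 0 for SR-3420 with inhibitors (edgeR), and 1 and 8 for ISO against SR-3420. Effects whose sign turned there while a call was made or lost were, for ISO, Uggt1 (-0.23, adjusted p 0.0231), Pdia3 (-0.25, adjusted p 0.0221), P4hb (-0.11, adjusted p 0.276), Txndc11 (-0.094, adjusted p 0.381), Manf (-0.059, adjusted p 0.651) and Ssr1 (-0.14, adjusted p 0.139), and for ISO with inhibitors Pdia6 (-0.23, adjusted p 0.0461). These follow the shift of all genes that the scaling itself makes. The genes higher with the inhibitors alone numbered 2 with a replicate block (Edem1 and Sel1l) and 3 with DESeq2, and those higher with SR-3420 and inhibitors 3 without a filter, 4 with the block, 2 with only the groups compared and 2 with DESeq2. For the SR-3420 interaction, the positive calls were 0 without a filter, 3 with the block and 3 with DESeq2, and the negative calls 14 with the block. The cause was not tested. With DESeq2 size factors in edgeR 359 of 360 single results kept their side of the threshold and with DESeq2 350, where the other 1 and 10 were gained. Same-numbered samples deviated from their group means with mean correlations of -0.0118, 0.150 and 0.190 for numbers 1, 2 and 3. For these numbers 0, 6 and 6 of 6 samples were nearest to their own number. Samples numbered 2 and 3 thus shared a deviation, and those numbered 1 did not. The main model used no pairing and leaves any such shared part in the spread. The block gained 24 calls and lost none of the single calls.

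Leaving out 1 library at a time gave 11 to 18 higher and 8 to 12 lower for ISO, 12 to 14 and 8 to 9 for SR-3420, 0 to 1 and 0 to 0 for the inhibitors alone, 17 to 20 and 6 to 9 for ISO with inhibitors, 0 to 2 and 0 to 0 for SR-3420 with inhibitors, 10 to 13 and 8 to 10 for the ISO interaction, 0 to 2 and 7 to 10 for the SR-3420 interaction, 6 to 7 and 3 to 5 for ISO against SR-3420, and 19 to 21 and 9 to 11 for the same with inhibitors. Of 154 called results 119 were kept in every such fit. Depth limits Derl3 and Ero1lb most, at lowest counts of 15 and 19.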
